A study of Drosophila melanogaster with 8 samples.

Results

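Seminal fluid protein genes were taken by symbol from the deposited count table. The symbol had to start with Acp (accessory gland protein for most of them) or Sfp (seminal fluid protein), followed by a digit. This gave 47 of 16018 genes, 19 with an Acp symbol and 28 with an Sfp symbol. In the reference annotation of dm6, the fly genome build used for the counts, all 47 are protein coding. Chromosome arm 2L carries 24 of them, 2R 8, 3L 9 and 3R 6, and none lies on the X chromosome. The genes are short, with deposited lengths of 168 to 2921 nucleotides and a median of 468.

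Seminal fluid proteins are secreted into the lumen of the male reproductive tract and pass to the female with the sperm at mating. In Drosophila most are made in the accessory glands, paired tubes of main and secondary cells, and others in the ejaculatory duct and the ejaculatory bulb. In the mated female they act on egg laying, sperm storage, receptivity and the mating plug. The testis, where sperm are formed, joins the rest of the tract at the seminal vesicle and is not their textbook source. Sex peptide, the best known of them, stands in the table under the symbol SP and so lies outside the 47.

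Poly(A)+ RNA had been sequenced from Drosophila melanogaster testes in which the GAL4/UAS system made green fluorescent protein in somatic cyst cells, the cells that wrap and support the developing germline. The first strain was the cross of tj-GAL4 (#104055, Kyoto) with UAS-GFP (#9431, Bloomington), and the second that of eya-GAL4 (Leatherman and Dinardo, 2008) with the same UAS-GFP line. The labels name early and mature cyst cells as the cells sorted without tying them to a driver; tj is known from early and eya from mature cyst cells. Each strain gave fluorescent cells collected by sorting and an unsorted cell suspension, 4 groups of 2 libraries that the labels call biological replicates. The age of the flies, the number pooled and the purity of the sorts are not stated, nor is how much of the neighbouring tract was left on the dissected testes. All 4 groups carry a driver and UAS-GFP, so neither strain was measured without them, and the sort took whatever cells had the driver active. The cyst cell marker genes tj, dome, eya, so and Six4 were higher in the sorted cells of both strains (edgeR, adjusted p under 0.05). The early cyst cell marker zfh1 was not called, at 0.63 on the log2 scale in tj-GAL4 (adjusted p = 0.31) and -0.86 in eya-GAL4 (adjusted p = 0.11).

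Gene counts ran from 10771009 to 25344721 per library. Replicate 2 of the tj-GAL4 unsorted cells stood apart from the other 7 libraries. Mitochondrially encoded genes took 31.7% of its gene counts, against 4.68% to 19.8% elsewhere, with Wilson 95% intervals no wider than ± 0.0223 percentage points. CPM is the count scaled for library size and a TMM scaling factor. The summed level of 7 fat body genes was 299 CPM in tj-GAL4 unsorted replicate 2, against 45.9 in replicate 1 and 6.49 to 10.5 in the other 6 libraries. A set of 6 spermatocyte genes summed to 129 CPM in it and to 243 to 303 CPM in the other 3 unsorted libraries. A set of 7 spermatid genes went the other way, at 6415 CPM in it and 3298 to 4008 CPM in those 3. The 2 tj-GAL4 replicate 1 libraries carry indexes of another length than the other 6. In the count table the eya-GAL4 unsorted libraries are numbered 3 and 4, and these numbers are used here.

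Reads of seminal fluid protein genes were present in every library and made up a smaller share of the counts after sorting. The 47 genes took 0.219% of the gene counts in tj-GAL4 unsorted replicate 1 (Wilson 95% interval 0.217% to 0.221%) and 0.379% in replicate 2 (0.376% to 0.382%). In eya-GAL4 unsorted replicates 3 and 4 they took 0.532% (0.528% to 0.536%) and 0.688% (0.684% to 0.692%). In sorted cells the share was 0.146% (0.144% to 0.148%) and 0.126% (0.125% to 0.128%) for tj-GAL4, and 0.131% (0.129% to 0.133%) and 0.145% (0.144% to 0.147%) for eya-GAL4. These intervals cover counting error only, as reads that carry no molecular identifier are not separate molecules. The 4 sorted libraries lay below the 4 unsorted ones, and the sorted libraries of the 2 strains overlapped. In such bulk samples, fewer cells of a type and less RNA per cell cannot be told apart.

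**Figure D1:**
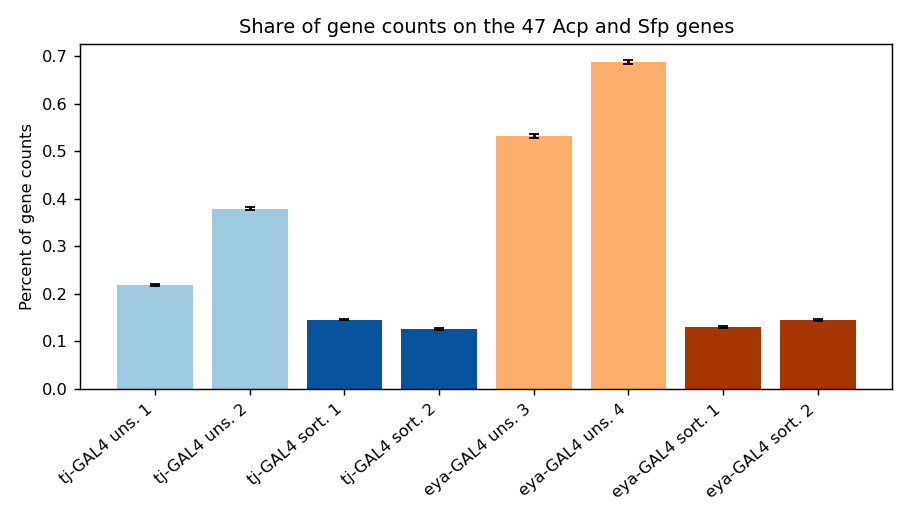
Share of all gene counts (percent) taken by the 47 Acp and Sfp genes in each of the 8 libraries, with Wilson 95% intervals (counting error only); "uns." is unsorted and "sort." is sorted. The eya-GAL4 unsorted libraries are highest at 0.532% and 0.688%, and the 4 sorted libraries lie between 0.126% and 0.146%.

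A few genes supplied most of these reads. The 5 members with the highest mean CPM, Acp36DE, Acp95EF, Acp54A1, Acp53C14b and Acp53C14a, held 44.9% to 61.2% of the members' reads in a library. Acp36DE alone held 32.3% and 32.0% in the eya-GAL4 unsorted libraries, 18.9% and 12.6% in the tj-GAL4 unsorted ones, 21.9% and 21.4% in tj-GAL4 sorted cells, and 21.6% and 9.63% in eya-GAL4 sorted cells (Wilson 95% intervals within ± 0.678 percentage points). It led the members in 6 of the 8 libraries. In tj-GAL4 unsorted replicate 2 Acp95EF came first with 18.3% (18.0% to 18.6%), and in eya-GAL4 sorted replicate 2 Acp54A1 did with 21.8% (21.3% to 22.2%). Thus the ranking of the members was not the same in the replicates of either group.

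Per length the order was different, because Acp36DE is the longest of the 47. As means over the 8 libraries, Acp95EF stood at 1304 CPM per kilobase, Acp54A1 at 858, Acp53C14b at 335, Acp53Ea at 292, Acp62F at 268, Acp98AB at 255 and Acp36DE at 222. In the eya-GAL4 unsorted libraries alone, the mean of Acp36DE was 534 CPM per kilobase, against 168 in tj-GAL4 unsorted, 104 in tj-GAL4 sorted and 83.1 in eya-GAL4 sorted cells. At the other end, Sfp24Bd averaged 1.44 CPM per kilobase, Sfp24Bc 2.48 and Sfp26Ac 2.90. The lowest were Acp1 and Acp65Aa, which encode adult cuticle proteins in spite of the shared prefix. Acp1 had 0 to 19 reads per library and Acp65Aa 0 to 10, where a count of 0 allows up to 3, and neither was tested.

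**Figure D2:**
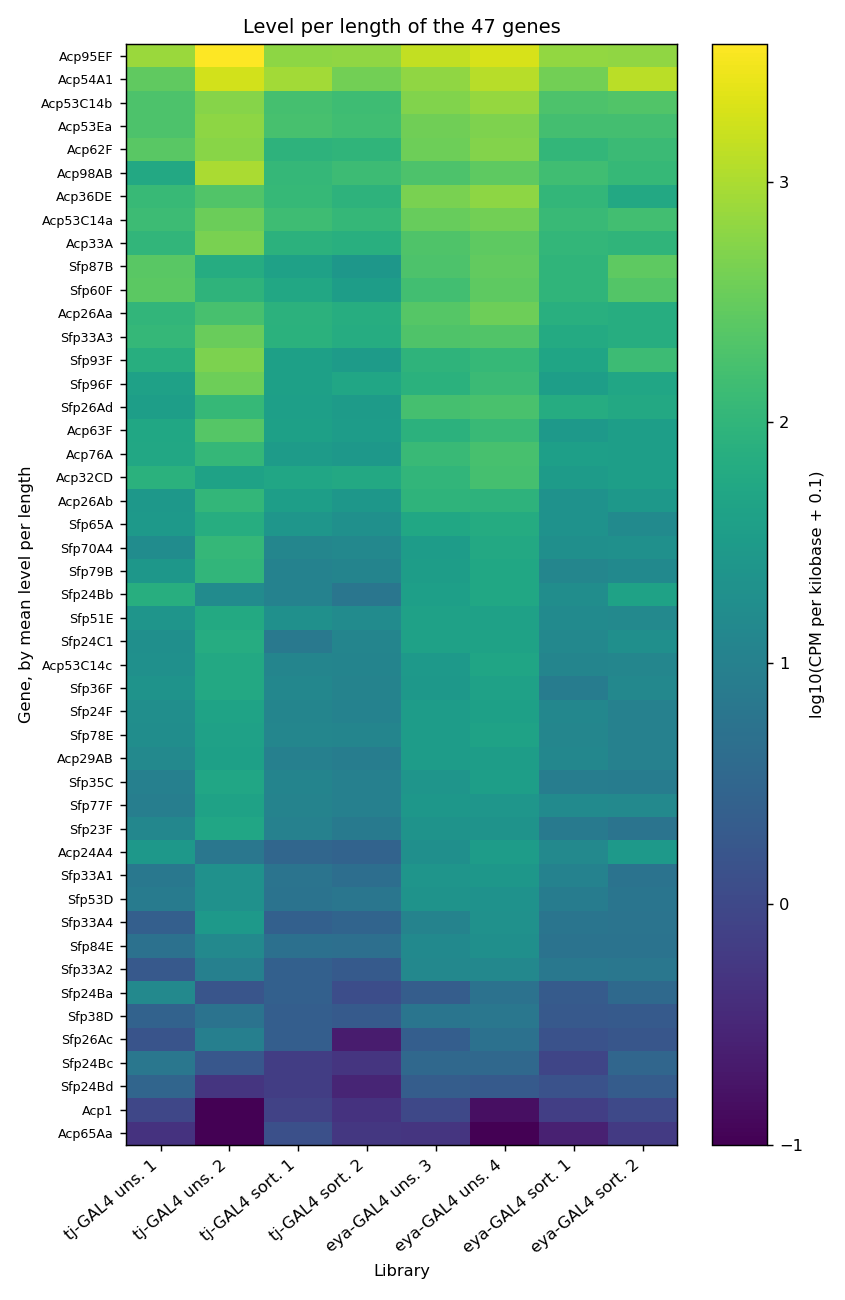
Level per length of the 47 genes (rows, ordered by their mean over the 8 libraries) in each library (columns); colour is log10(CPM per kilobase + 0.1). Acp95EF heads the order at a mean of 1304 CPM per kilobase and Acp65Aa ends it, and the column of tj-GAL4 unsorted replicate 2 has several genes out of the order of its neighbours.

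Of the 47 genes, 45 passed the filter of at least 1 CPM in at least 2 libraries, and 39 reached 1 CPM in all 8. Sfp24Bc, Sfp24Bd and Sfp26Ac passed with fewer than 2 sorted libraries at that level, so for them passing and being lower in sorted cells are not independent. The tests were fitted across all 12570 genes that passed, with adjusted p-values (Benjamini-Hochberg) from edgeR's quasi-likelihood test, two-sided, and values below are log2 fold changes ± standard error with n = 2 libraries per group.

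The comparison of sorted with unsorted cells of a strain asks which transcripts belong to the marked cyst cells. In the eya-GAL4 strain 25 of the 45 tested members fell and 0 rose, where 20% of all genes tested fell and 28% rose. In the tj-GAL4 strain 3 of 45 fell and 0 rose, where 2.38% of all genes fell and 8.98% rose. At an unadjusted p under 0.05, 27 members were lower in the eya-GAL4 and 30 in the tj-GAL4 comparison and 0 were higher in either, where 58% and 30.4% of all genes reached that p in one direction or the other. DESeq2 also called 0 members higher, where it called 27.8% of all genes higher in eya-GAL4 and 11.2% in tj-GAL4. The fitted change lay below 0 for 45 of 45 members in both, against 51.6% of all genes in eya-GAL4 and 52.3% in tj-GAL4. The 45 include Sfp24Bc, Sfp24Bd and Sfp26Ac, whose direction is not independent of passing the filter. The median of the members was -1.51 in eya-GAL4 and -1.58 in tj-GAL4, beside -0.09 and -0.08 over all genes tested. The 3 genes that fell in tj-GAL4 cells, Acp62F, Acp76A and Sfp79B, were also among the 25 in eya-GAL4 cells.

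Without tj-GAL4 unsorted replicate 2, the library that stood apart, the tj-GAL4 picture changed. The median of the members moved to -0.47, beside -0.01 over all genes, and 8 of 44 tested members had a fitted change above 0. Without replicate 1 of the same group the median of the members was -1.98, beside 0.13 over all genes, and 2 were above 0. The calls of both strains rested on few libraries. Leaving out any sorted or eya-GAL4 unsorted library lost some or all of the tj-GAL4 calls. Leaving out any eya-GAL4 library lost most of the eya-GAL4 calls, though not that of Acp36DE. In each of these fits a smaller share of all genes fell as well. The median of the members there was -1.78 to -1.42 in tj-GAL4 and -1.65 to -1.35 in eya-GAL4. Leaving out either tj-GAL4 sorted library lost some eya-GAL4 calls too. Without either tj-GAL4 unsorted library the calls of both strains were all kept. In eya-GAL4, 4 of 44 tested members had a fitted change above 0 without unsorted replicate 4, and 6 of 45 without sorted replicate 1.

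The libraries of most members did not overlap between sorted and unsorted cells. Both eya-GAL4 sorted libraries lay below both unsorted ones for 37 of 45 members, where 44.3% of all genes did. For tj-GAL4 this held for 31 of 45, where 22.9% of all genes did. Both counts include Sfp24Bc, which passed the filter only through unsorted libraries, and the eya-GAL4 count also Sfp26Ac. No member was higher in both sorted libraries of either strain, where 42% and 32.9% of all genes were. In the tj-GAL4 unsorted group the 2 replicates differed by more than 2-fold for 42 of the 45 members, and the unsorted mean there is a mean of unlike values.

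**Figure D3:**
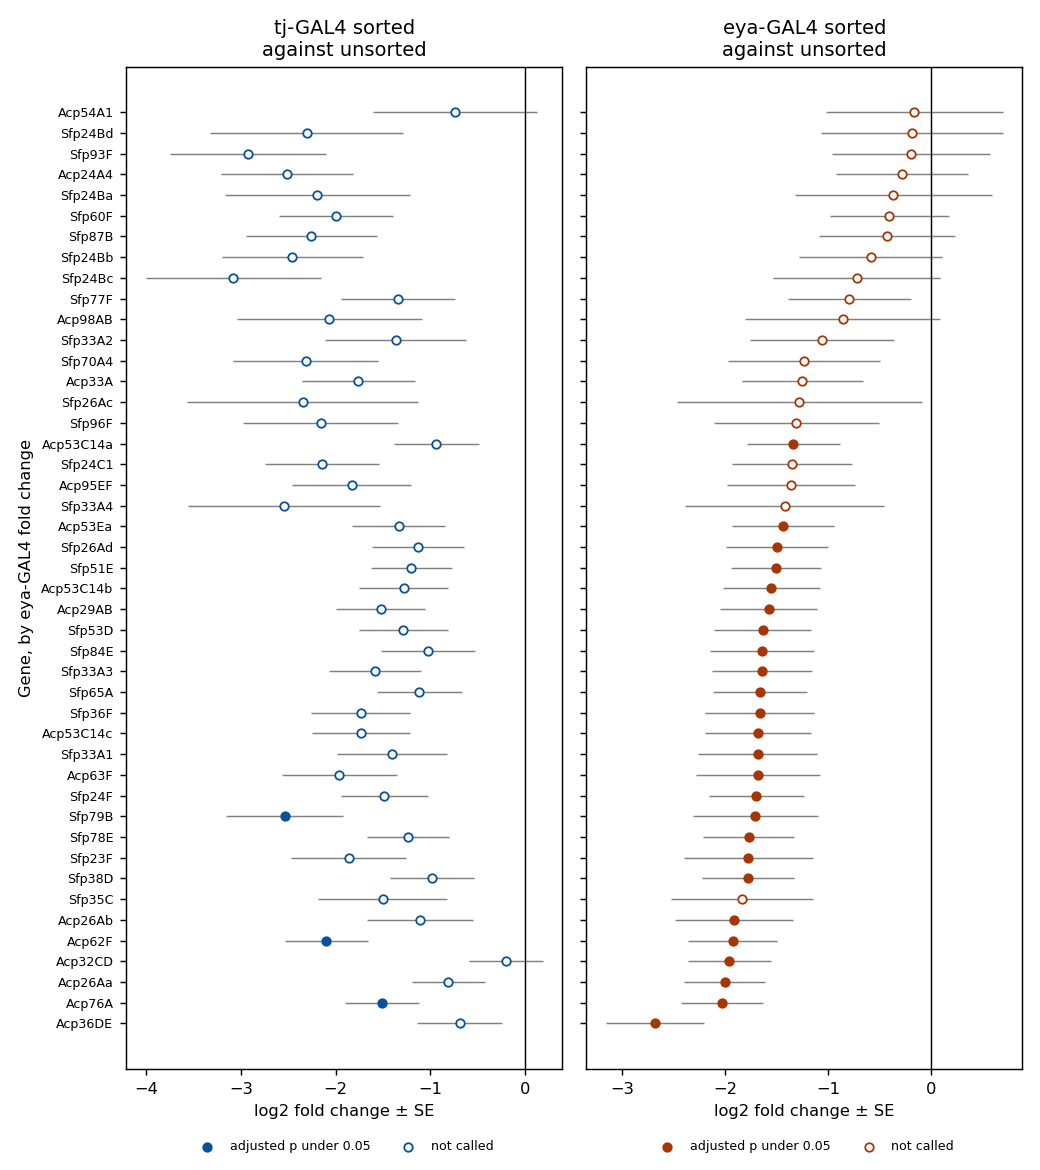
Log2 fold change ± standard error, sorted against unsorted cells, of the 45 tested members in the tj-GAL4 (left) and eya-GAL4 (right) strains, ordered by the eya-GAL4 value; filled points have an edgeR adjusted p under 0.05. Filled points number 3 on the left and 25 on the right, and every fitted change lies below 0.

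Among genes that act on sperm storage and ovulation, Acp36DE had the largest fall of the members in eya-GAL4 sorted cells. Acp36DE (FBgn0011559, 2L:18356047-18359028, minus strand), a glycoprotein needed for sperm to be stored in the female, stood at 1313 and 1805 CPM in the eya-GAL4 unsorted libraries and at 315 and 170 CPM in the sorted ones. It stood at 355 and 624 CPM in tj-GAL4 unsorted cells and at 342 and 265 CPM in tj-GAL4 sorted cells. The eya-GAL4 unsorted libraries were above all others, whereas the lower tj-GAL4 unsorted library was close to the higher sorted one. The log2 change was -2.68 ± 0.48 in eya-GAL4 (adjusted p = 0.0043), a call that held with each library left out, and -0.69 ± 0.45 in tj-GAL4 (adjusted p = 0.31). The gene lies inside Fas3, on the opposite strand and outside its exons.

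Acp26Aa (2L:5892883-5893896), or ovulin, which raises the rate of ovulation, is the neighbour of Acp26Ab (2L:5892298-5892862), at a gap of 20 nucleotides. Acp26Aa was at 219 and 352 CPM in eya-GAL4 unsorted and 74.0 and 68.3 CPM in sorted cells, and at 97.4 and 169 CPM in tj-GAL4 unsorted and 84.3 and 67.6 CPM in sorted cells. Sorted cells of both strains were alike and lay below their unsorted cells without overlap. Its log2 change was -2.01 ± 0.39 in eya-GAL4 (adjusted p = 0.0061) and -0.81 ± 0.38 in tj-GAL4 (adjusted p = 0.19). Acp26Ab, a small secreted peptide, had 47.4 and 45.1 CPM in eya-GAL4 unsorted and 10.9 and 13.6 CPM in sorted cells (-1.92 ± 0.57, adjusted p = 0.027). In tj-GAL4 cells it had 13.8 and 54.6 CPM before and 18.1 and 13.5 CPM after sorting, so that the groups overlapped. Acp29AB (2L:8392456-8393222), a C-type lectin linked to the retention of stored sperm, had 26.1 and 27.3 CPM in eya-GAL4 unsorted and 10.03 and 7.88 CPM in sorted cells (-1.58 ± 0.47, adjusted p = 0.027). It had 10.7 and 29.7 CPM in tj-GAL4 unsorted and 7.41 and 6.58 CPM in sorted cells (-1.53 ± 0.47, adjusted p = 0.072), without overlap and without a call.

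Acp62F and Acp76A, which encode protease inhibitors, fell in both strains. Acp62F (FBgn0020509, 3L:2739750-2740228, plus strand) encodes a trypsin inhibitor. Its level was 121 and 271 CPM in tj-GAL4 unsorted and 43.6 and 47.7 CPM in sorted cells, and 172 and 258 CPM in eya-GAL4 unsorted and 51.3 and 61.8 CPM in sorted cells. All 4 sorted values lay below all 4 unsorted values. It changed by -2.10 ± 0.44 in tj-GAL4 (adjusted p = 0.020) and by -1.93 ± 0.43 in eya-GAL4 (adjusted p = 0.0099). Acp76A (FBgn0015586, 3L:19050757-19052026, minus strand), of the serpin family of serine protease inhibitors, was at 67.1 and 135 CPM in tj-GAL4 unsorted and 38.5 and 32.5 CPM in sorted cells. In eya-GAL4 it was at 152 and 213 CPM before and 45.7 and 43.5 CPM after sorting. Again the 4 sorted libraries were the lowest, with changes of -1.51 ± 0.39 (adjusted p = 0.043) and -2.03 ± 0.40 (adjusted p = 0.0060). With a replicate block on the tj-GAL4 libraries the first of these was -1.43 ± 0.39 and no longer passed (adjusted p = 0.065).

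The third gene that fell in both strains was Sfp79B (3L:22080322-22080554), which was low throughout. It had 6.02 and 23.9 CPM in tj-GAL4 unsorted, 2.47 and 2.63 CPM in tj-GAL4 sorted, 8.27 and 12.4 CPM in eya-GAL4 unsorted and 2.89 and 3.40 CPM in eya-GAL4 sorted cells. The changes were -2.54 ± 0.62 (adjusted p = 0.035) and -1.71 ± 0.61 (adjusted p = 0.047), with no overlap between sorted and unsorted libraries.

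The Acp53 genes form a tandem cluster of related genes on 2R, in the order Acp53C14a, Acp53C14b, Acp53Ea and Acp53C14c, with gaps of 224, 342 and 440 nucleotides. Acp53C14b, the highest of them, stood at 304 and 409 CPM in eya-GAL4 unsorted and 114.7 and 129 CPM in sorted cells (-1.55 ± 0.47, adjusted p = 0.029). In tj-GAL4 cells it stood at 118 and 324 CPM before and 97.4 and 84.6 CPM after sorting (-1.28 ± 0.47, adjusted p = 0.11). The other 3 fell in eya-GAL4 cells too, Acp53C14c by 1.68 ± 0.52 (adjusted p = 0.030), Acp53Ea by 1.44 ± 0.49 (adjusted p = 0.041) and Acp53C14a by 1.34 ± 0.45 (adjusted p = 0.039). None of the 4 passed in tj-GAL4 cells, where their values were -0.93 to -1.73. Per length they were far from even, with means over the 8 libraries of 335, 292, 216 and 25.2 CPM per kilobase for Acp53C14b, Acp53Ea, Acp53C14a and Acp53C14c.

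Acp32CD (2L:11015620-11016571) fell in eya-GAL4 cells. It was at 89.4 and 146 CPM in eya-GAL4 unsorted and 28.6 and 31.7 CPM in sorted cells (-1.96 ± 0.40, adjusted p = 0.0072). In tj-GAL4 cells it was at 72.7 and 37.8 CPM before and 45.6 and 50.5 CPM after sorting (-0.20 ± 0.39, adjusted p = 0.72), and both sorted values lay between the unsorted ones. The difference between these 2 enrichments was 1.76 ± 0.55, which did not pass (adjusted p = 0.33).

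Acp63F (3L:3815839-3816354) fell in eya-GAL4 cells, from 34.6 and 50.3 to 11.9 and 14.5 CPM (-1.68 ± 0.60, adjusted p = 0.048). Its tj-GAL4 values of 21.1 and 92.7 CPM before and 15.6 and 13.6 CPM after sorting did not overlap but were not called (-1.96 ± 0.61, adjusted p = 0.073). The remaining 12 members called in eya-GAL4 cells all had Sfp symbols: Sfp23F, Sfp24F, Sfp26Ad, Sfp33A1, Sfp33A3, Sfp36F, Sfp38D, Sfp51E, Sfp53D, Sfp65A, Sfp78E and Sfp84E. Their changes lay in a narrow band from -1.50 for Sfp26Ad to -1.78 for Sfp38D. The highest of these 12 by CPM were Sfp33A3, with 85.9 and 90.2 CPM before and 26.5 and 29.9 CPM after sorting, and Sfp26Ad, with 102 and 113 CPM before and 41.7 and 34.6 CPM after. Sfp78E shares exon bases with CG11248 and lncRNA:CR43978, and Sfp84E with Os-C. The strand setting of the counting is not given, so reads of these pairs cannot be told apart with certainty.

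**Figure D4:**
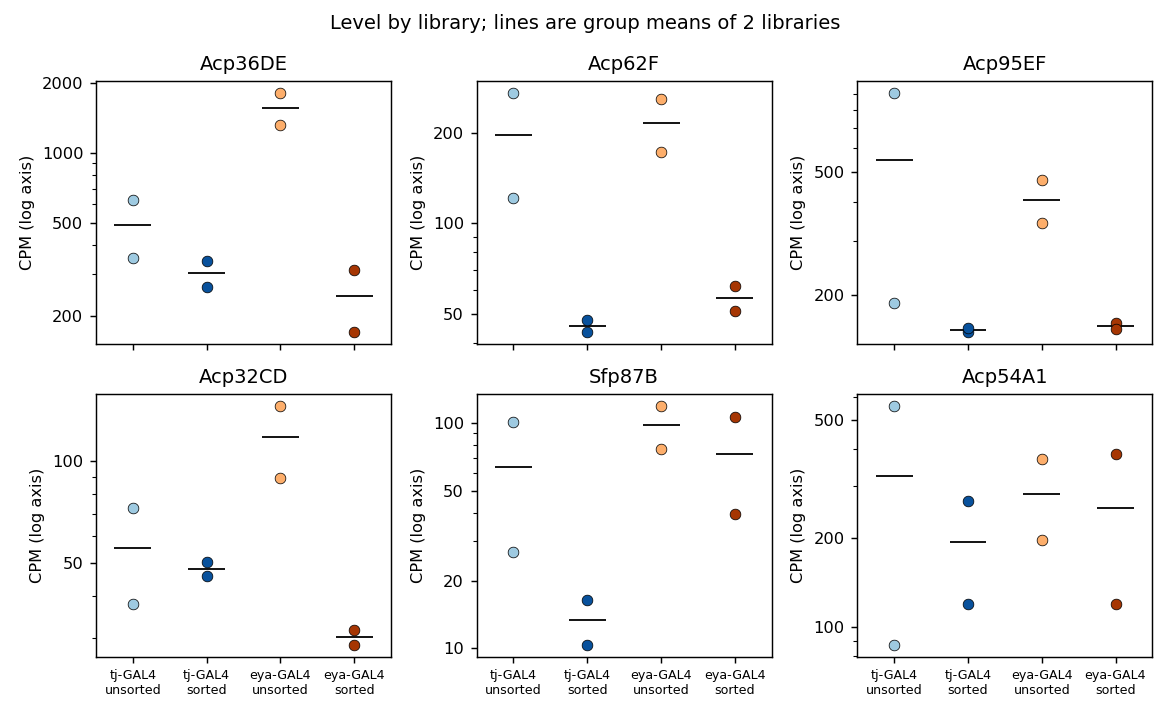
Level (CPM, log axis, scaled separately for each gene) of 6 members in the 8 libraries, by group; points are libraries and lines are means of the 2 libraries of a group. Acp36DE and Acp62F are lower in sorted than in unsorted cells without overlap, while for Acp54A1 the 2 libraries of 3 groups lie far apart.

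Several abundant members were not called in either strain in the main fit, and their tj-GAL4 unsorted libraries were widely spread. With only the compared groups fitted, Acp95EF, Acp33A and Acp98AB fell in eya-GAL4 cells, where 36.3% of all genes fell. Acp95EF (3R:24228975-24229279), a short peptide gene, had 188 and 907 CPM in tj-GAL4 unsorted, 151 and 156 CPM in tj-GAL4 sorted, 343 and 471 CPM in eya-GAL4 unsorted and 162 and 155 CPM in eya-GAL4 sorted cells. The 4 sorted libraries were close together and below all unsorted ones, but the test gave -1.83 ± 0.63 (adjusted p = 0.097) and -1.36 ± 0.62 (adjusted p = 0.097). Acp95EF shares exon bases with Spase22-23, so its reads are uncertain. Acp33A (2L:11591339-11591678) had 34.3 and 154 CPM in tj-GAL4 unsorted and 29.5 and 25.9 CPM in sorted cells (-1.76 ± 0.60, adjusted p = 0.094). Its eya-GAL4 values were 70.2 and 93.5 CPM before and 36.0 and 32.9 CPM after sorting (-1.25 ± 0.59, adjusted p = 0.11), again without overlap.

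Acp54A1 (2R:17133445-17133750) and Acp98AB (3R:27694883-27695057) were more uneven still. Acp54A1 was at 87.1 and 558 CPM in tj-GAL4 unsorted, 266 and 120 CPM in tj-GAL4 sorted, 197 and 368 CPM in eya-GAL4 unsorted and 119 and 385 CPM in eya-GAL4 sorted cells. Every group overlapped its counterpart, and the changes were -0.74 ± 0.87 (adjusted p = 0.56) and -0.16 ± 0.86 (adjusted p = 0.88). Acp98AB was at 10.04 CPM in tj-GAL4 unsorted replicate 1 and 174 CPM in replicate 2, a ratio of 17.4, while its other 6 values lay between 19.7 and 48.9 CPM.

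The replicates of tj-GAL4 unsorted cells split the members into groups that moved in opposite ways. Of the 45 tested members, 35 were more than 2-fold higher in replicate 2 than in replicate 1 and 7 were more than 2-fold lower, where 24.6% and 14.3% of all genes were. The median log2 ratio of the members was 1.51, beside 0.15 over all genes. The 7 lower genes were Acp24A4, Sfp24Ba, Sfp24Bb, Sfp24Bc, Sfp24Bd, Sfp60F and Sfp87B. As they were picked by these values, what follows describes them and tests nothing.

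Sfp87B (3R:12273126-12273521) and Sfp60F (2R:25172245-25172695) were the most abundant of the 7. Sfp87B had 101 and 26.7 CPM in tj-GAL4 unsorted, 16.5 and 10.4 CPM in tj-GAL4 sorted, 77.0 and 119 CPM in eya-GAL4 unsorted and 39.5 and 106 CPM in eya-GAL4 sorted cells. Sfp60F had 104 and 37.5 CPM, 21.6 and 13.9 CPM, 61.2 and 108 CPM, and 38.8 and 88.9 CPM in the same order. Both genes were high in eya-GAL4 sorted replicate 2, near their unsorted values. The same library was more than 2-fold above its replicate for 7 members, Acp24A4, Acp54A1, Sfp24Bb, Sfp24Bc, Sfp60F, Sfp87B and Sfp93F, and more than 2-fold below it for none, where 3.29% and 3.65% of all genes were. Of these 7, 5 are among the genes that were lower in tj-GAL4 unsorted replicate 2, while Acp54A1 and Sfp93F were 6.41-fold and 6.43-fold higher there.

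Of the 7 genes lower in tj-GAL4 unsorted replicate 2, 5 lie close together on 2L. Sfp24Ba, Sfp24Bd, Sfp24Bb and Sfp24Bc lie side by side in that order, with gaps of 139, 126 and 355 nucleotides, inside the gene Drgx on the opposite strand, and Acp24A4 follows 22602 nucleotides on. Drgx had at most 1.71 CPM in any library. Between 2L:3667977 and 2L:3701092 the annotation lists 17 genes, 6 of them members. Of these members, the 5 from Sfp24Ba to Acp24A4 were lower in tj-GAL4 unsorted replicate 2 than in replicate 1, and Sfp24C1 was higher, at 24.5 against 6.77 CPM. Among the other 11 genes 9 were higher in replicate 2, including IM33 at 71.3 against 10.2 CPM. Sfp60F and Sfp87B lie on other chromosome arms.

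Genes of other parts of the male tract differed between the same replicates, and their part in the pattern was not tested. Ebp, whose product is a main component of the mating plug and is made in the ejaculatory bulb, had 418 CPM in tj-GAL4 unsorted replicate 1 and 44.7 CPM in replicate 2. It had 104 CPM in eya-GAL4 sorted replicate 1 and 322 CPM in replicate 2, so both differences ran the way of Sfp87B. EbpII, a second bulb gene, gave 111 and 31.0 CPM in the former pair and 43.2 and 124 CPM in the latter. EbpIII, of the same list, went the other way in the former pair, at 51.0 and 161 CPM. Of the 7 tested duct and bulb genes, 5 were higher in tj-GAL4 unsorted replicate 2 and 2 lower. In eya-GAL4 sorted replicate 2 all 7 were higher. Of 14 tested accessory gland genes without an Acp or Sfp symbol, 14 were higher in the former pair's replicate 2 and 10 in the latter's. Over all genes the median log2 ratio of replicate 2 over 1 was 0.15 in the former pair and 0.01 in the latter. Dup99B, a sex peptide relative made in the ejaculatory duct, ran the way of Sfp93F, at 80.4 and 691 CPM in the former pair and 63.3 and 151 CPM in the latter. The sex peptide network genes CG17575, lectin-46Ca and lectin-46Cb were lower in tj-GAL4 unsorted replicate 2, at ratios of 0.350, 0.453 and 0.344 to replicate 1, as was Acp32CD at 0.520. Of the 12 tested genes of that network, 7 were higher in replicate 2 and 5 lower. The genes named in these sentences were picked for their values.

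**Figure D5:**
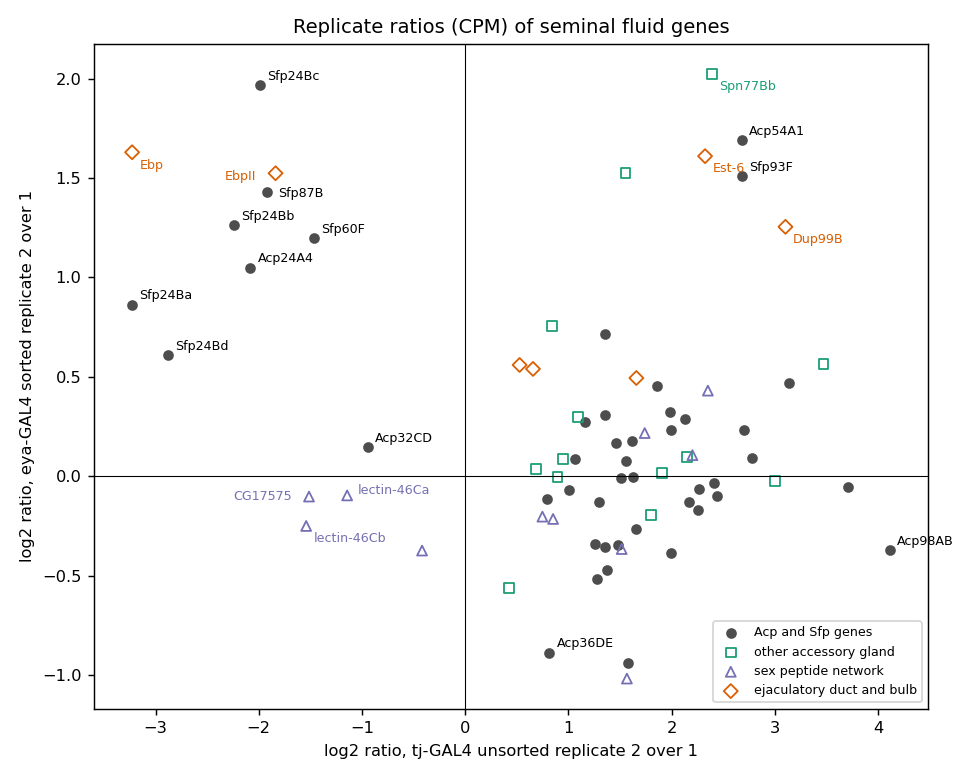
Log2 ratio of CPM between replicates, tj-GAL4 unsorted replicate 2 over 1 (x axis) against eya-GAL4 sorted replicate 2 over 1 (y axis). Filled points are the 45 tested members. Open symbols are genes of the other accessory gland, sex peptide network, and ejaculatory duct and bulb lists with at least 5 CPM in 1 library. The 7 members at the upper left (Sfp87B, Sfp60F, Acp24A4 and the Sfp24B genes) lie with Ebp and EbpII, and most members lie right of 0; each point rests on single libraries.

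In tj-GAL4 sorted against eya-GAL4 sorted cells 0 of 45 passed edgeR, where 0.111% of all genes did. An unadjusted p under 0.05 was reached by 4, where 10.8% of all genes reached it. DESeq2 called 2 lower in tj-GAL4, Acp24A4 and Sfp87B, where it called 1.02% of all genes lower and 0.368% higher. The 4 were Acp24A4 (-2.88 ± 0.71, adjusted p = 0.24), Sfp87B (-2.45 ± 0.70, adjusted p = 0.31), Sfp60F (-1.85 ± 0.60, adjusted p = 0.38) and Sfp24Bb (-1.88 ± 0.73, adjusted p = 0.45), all lower in tj-GAL4. These are also genes that were uneven between the eya-GAL4 sorted replicates. When either tj-GAL4 unsorted library was left out, all 4 passed, where 3.39% and 3.54% of all genes were lower. Both tj-GAL4 libraries lay below both eya-GAL4 ones for 20 of 45 members, where 27.6% of all genes did, and above them for 5, where 29.3% did. The median of the members was -0.30.

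Between the unsorted suspensions 0 of 45 members passed edgeR, where 0.0716% of all genes did. DESeq2 called 1 lower in tj-GAL4, Acp36DE, where it called 0.495% of all genes lower and 2.57% higher. An unadjusted p under 0.05 in edgeR was reached by 4 here too, where 11.8% of all genes reached it. These 4 were lower in tj-GAL4: Acp36DE (-1.67 ± 0.46, adjusted p = 0.28), Sfp26Ad (-1.20 ± 0.49, adjusted p = 0.41), Acp26Aa (-1.10 ± 0.38, adjusted p = 0.36) and Acp32CD (-1.09 ± 0.39, adjusted p = 0.37). The unsorted tj-GAL4 libraries lay below both eya-GAL4 ones for 10 members, where 11.5% of all genes did, and above both for none, where 23.1% did. Without tj-GAL4 unsorted replicate 1, 9 members were higher and 5 lower, where 22% and 9.54% of all genes were. Without replicate 2, 7 were lower and none higher, where 0.819% and 0.426% of all genes were.

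The difference between the 2 enrichments, tj-GAL4 minus eya-GAL4, passed for 0 of 45 members in edgeR, where 0% of all genes passed. DESeq2 called 0 members, where it called 0.0976% of all genes higher and 2.9% lower. An unadjusted p under 0.05 in edgeR was reached by 4, beside 14.6% of all genes. Acp36DE (1.99 ± 0.64) and Acp32CD (1.76 ± 0.55) were less reduced in tj-GAL4, and Acp24A4 (-2.24 ± 0.94) and Sfp93F (-2.73 ± 1.11) more so, all with an adjusted p = 0.33. Hence the 25 calls in one strain and 3 in the other do not show that the strains differed. Without tj-GAL4 unsorted replicate 1, 2 members were called higher and 9 lower, where 13.3% and 20.4% of all genes were, and without replicate 2, 1 was lower, where 0.41% of all genes were.

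Of all genes tested, 20% fell and 28% rose in eya-GAL4 cells, and 2.38% fell and 8.98% rose in tj-GAL4 cells. Of 14 tested genes for accessory gland secretions without an Acp or Sfp symbol, 8 fell in eya-GAL4 and 1 in tj-GAL4 cells. Their medians were -1.47 and -1.39. Those that fell in eya-GAL4 included the serpin genes Spn28F (-2.07 ± 0.36, adjusted p = 0.0042) and Spn38F (-1.98 ± 0.37, adjusted p = 0.0051). The 1 in tj-GAL4 was msopa (-1.92 ± 0.47, adjusted p = 0.035). Of 12 tested genes of the sex peptide network, 7 fell and 2 rose in eya-GAL4 cells and 1 rose in tj-GAL4 cells, with medians of -1.72 and -0.54. Sex peptide itself had 11.8 and 54.4 CPM in tj-GAL4 unsorted, 12.1 and 11.0 CPM in tj-GAL4 sorted, 21.0 and 37.6 CPM in eya-GAL4 unsorted and 10.6 and 11.5 CPM in eya-GAL4 sorted cells. Its groups overlapped in tj-GAL4 and not in eya-GAL4, and it was not called (-1.52 ± 0.63, adjusted p = 0.15, and -1.41 ± 0.63, adjusted p = 0.093). Among those that fell in eya-GAL4 were aqrs (-2.23 ± 0.36, adjusted p = 0.0031) and lectin-46Ca (-2.04 ± 0.44, adjusted p = 0.0087), which act on the binding of sex peptide to sperm. Esp, a gene of the same list, rose in both strains, by 3.85 ± 0.36 (adjusted p = 0.0014) and 4.28 ± 0.37 (adjusted p = 0.00033). The other gene of the list that rose in eya-GAL4 was hdly (2.20 ± 0.65, adjusted p = 0.026).

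In the ejaculatory duct and bulb list of 7 tested genes, the median was -1.74 in tj-GAL4 cells and the smallest adjusted p = 0.056 (Anp, -1.29 ± 0.37). In eya-GAL4 cells EbpIII rose (3.67 ± 0.58, adjusted p = 0.0029) and Anp, an antibacterial peptide gene of the duct, fell (-1.23 ± 0.38, adjusted p = 0.029), with a median of -0.55. Of 4 transcription factor genes of the accessory gland, dve and Hr39 were not called in either strain. Hr39 was at 0.09 ± 0.33 in tj-GAL4 (adjusted p = 0.86) and -0.11 ± 0.33 in eya-GAL4 (adjusted p = 0.79). The gene prd, which the gland needs to form, fell in eya-GAL4 cells (-2.70 ± 0.36, adjusted p = 0.0015). In tj-GAL4 cells prd was not called (-0.97 ± 0.34, adjusted p = 0.098). Abd-B, a Hox gene active in the gland's secondary cells, fell in both strains (-2.57 ± 0.58, adjusted p = 0.027 in tj-GAL4, and -1.70 ± 0.57, adjusted p = 0.039 in eya-GAL4).

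Markers of other tissues also differed between sorted and unsorted cells, and their part in the members' change was not tested. For scale, 2.38% of all genes fell and 8.98% rose in tj-GAL4 cells, and 20% fell and 28% rose in eya-GAL4 cells. The summed level of 9 muscle genes was 977 and 1001 CPM in tj-GAL4 unsorted and 131 and 85.4 CPM in sorted cells, and 9 of 9 fell. In eya-GAL4 it was 476 and 955 CPM before and 355 and 334 CPM after sorting, with 2 falls and 1 rise. The 6 spermatocyte genes fell in eya-GAL4 cells, 6 of 6, and their median in tj-GAL4 cells was -1.01. Of the 7 fat body genes, 5 fell in tj-GAL4 cells (median -4.72) and 0 were called in eya-GAL4 cells (median 0.25). The spermatid genes p-cup and wa-cup fell in both strains, 2 of the 7 tested of that list. The summed CPM of the 47 Acp and Sfp genes was 1876 and 4970 in tj-GAL4 unsorted and 1562 and 1238 in tj-GAL4 sorted cells. It was 4065 and 5642 in eya-GAL4 unsorted and 1461 and 1768 in eya-GAL4 sorted cells.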

How the data were processed

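Raw counts per gene were used as deposited; per the file headers they are HTSeq output. Gene length, in nucleotides, was taken from the authors' table. The submitters' processing notes name FastQC, Bowtie 1.2.2, HTSeq, DESeq2 and the build dm6. Annotation release, strand setting and treatment of multiply matching reads are not stated. Another 28 columns of per-sample values were left unused.

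Genes reaching a CPM of 1 in at least 2 libraries entered edgeR 4.0.16 in R 4.3.3 (quasi-likelihood, TMM scaling, all 8 libraries and 4 groups in 1 fit) for 5 comparisons, with calls at an adjusted p under 0.05. CPM are counts scaled to a library's gene counts and its TMM factor. Standard errors are the size of the log2 fold change divided by the square root of F. Alternatives were DESeq2 1.42.0, RLE scaling, no filter, a fit on the compared groups alone, a replicate block and leaving out each library; a crossed block was added after seeing the data. Positions and overlaps come from the Ensembl annotation of dm6, matched by symbol for 47 of 47 genes.

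Genes given in full are those called in a comparison, the 8 with the highest mean CPM and those with a known role; other lists give called genes, at most 4 each. Genes outside this rule are said to be chosen for their values. The members, lists and rule were chosen with earlier results of these data known.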

Additional observations from a re-analysis of the deposited data

How the results depend on the processing

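The counts of called members depended on the test, the samples and single libraries more than on the scaling. In the tj-GAL4 enrichment 3 members fell, where 2.38% of all genes did. With DESeq2 28 fell (7.71% of all genes), without a filter 12 (2.92%) and with RLE scaling 4 (2.78%). With only the compared groups fitted 0 fell (0.251% of all genes). With each library left out the median of the members ran from -1.98 to -0.47. In the eya-GAL4 enrichment 25 fell, where 20% of all genes did. RLE scaling gave 25 (20.4% of all genes), DESeq2 27 (20.8%), no filter 26 (15.8%) and only the compared groups 35 (36.3%). With each library left out the median here ran from -1.65 to -1.35. Between sorted cells none passed, but 2 were lower in tj-GAL4 with DESeq2, where 1.02% of all genes were. With only the compared groups 5 were lower, where 4.83% of all genes were. With each library left out the median was -0.33 to -0.20. Between unsorted cells none passed, against 1 lower with DESeq2, and with each library left out 0 to 9 were higher and 0 to 7 lower. For the difference of the enrichments these ranges were 0 to 2 higher and 0 to 9 lower. The causes were not tested.

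For the members given in full, the fitted change turned its sign in 6 cases. With each library left out, the tj-GAL4 enrichment ran from -1.80 to 0.16 for Acp26Ab, -1.54 to 1.13 for Acp54A1 and -2.99 to 1.10 for Acp98AB, lowest without unsorted replicate 1 and highest without replicate 2. For Acp32CD it ran from -0.62 without unsorted replicate 2 to 0.34 without replicate 1. The eya-GAL4 enrichment of Acp54A1 ran from -1.24 without sorted replicate 2 to 0.34 without unsorted replicate 4 and 0.46 without sorted replicate 1. The other values of these members, and of those named for an unadjusted p in the other comparisons, kept their direction, 757 on the same side of the threshold, 84 newly past it and 129 no longer past it. Members not given in full turned as well, among them Sfp24Ba in both strains. RLE scaling moved the median of all genes from -0.03 to -0.16 in the difference of the enrichments and from 0.12 to -0.04 between sorted cells. The calls of members in these comparisons did not change.

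The tj-GAL4 replicate numbers are shared by sorted and unsorted libraries, and the 2 pairs did not deviate together (r = -0.34 between replicate differences, across 12570 genes that are not independent). With a replicate block on the number 3 members fell in tj-GAL4 and 27 in eya-GAL4 cells, where 1.85% and 19.4% of all genes did. The 3 were Acp62F and Sfp79B of the main calls and Sfp24C1 in place of Acp76A (adjusted p = 0.065). No member passed in the other comparisons. With the pairing crossed, chosen after seeing the data, 14 and 28 fell, where 4.81% and 27.2% of all genes did. The eya-GAL4 numbers pair nothing.

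With 2 libraries per group the fit leans on a spread shared by all groups, and 1 library decides many calls. Low members such as Sfp24Bd and Sfp26Ac rest on few reads. Overlapping genes and close relatives, such as those of the Acp53 and Sfp24B clusters, cannot be separated further with the counting details given here.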
